A study of Mus musculus with 8 samples.

Results

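The genes described here are 9 myelin and oligodendrocyte lineage genes, Mbp, Mobp, Mag, Mog, Cldn11, Cnp, Olig1, Olig2 and Sox10. They were chosen by gene symbol from the table of all libraries, and all 9 were found among its 24860 genes. RNA sequencing measured them in 8 libraries of mouse retina. In 4 of them, labelled AAV2-shCX36, an adeno-associated viral vector delivered a hairpin that targets connexin 36, which forms electrical synapses between neurons. In 4 others, labelled AAV2-scramble, the vector carried a scrambled hairpin as the control. All 8 therefore carry the viral vector, and neither the promoter of the hairpin nor strain, age, injury or time after injection is given in the sources used here. The series text speaks of different mice but gives no number of animals per library. The spread behind each p-value is that of these libraries and may be technical. The control libraries 1 and 2 are shown apart from 3 and 4, a split made with the levels of these genes known.

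Oligodendrocytes are the glia that wrap axons of the central nervous system in myelin. SOX10 and the OLIG factors direct the lineage, and the sheath is built from a small set of very abundant proteins. In the mouse eye the axons of retinal ganglion cells run unmyelinated within the retina, and oligodendrocytes wrap them in the optic nerve behind the globe.

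Levels are FPKM, fragment counts scaled to transcript length and library size. From the spacing of low values, the libraries held an estimated 35600000 to 39000000 counted fragments. Retinal ganglion cells are the labelled cell type, and 11 ganglion cell markers summed to between 1586 and 2773 FPKM. Rod transcripts were present as well, with 8 rod markers summing to between 790 and 1814 FPKM.

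All 9 genes had their highest level in AAV2-scramble 2 and their next highest in AAV2-scramble 1. The 9 together summed to 99.2 FPKM in AAV2-scramble 2 and to 31.7 FPKM in AAV2-scramble 1. AAV2-scramble 3 and 4 had 9.79 and 10.8 FPKM, within the 9.11 to 10.8 FPKM of the AAV2-shCX36 libraries. The high values were thus those of 2 control libraries, and the groups overlapped for all 9 genes, whereas they did not overlap in 15.9% of all tested genes (7.05% with AAV2-shCX36 lower). In bulk RNA, more cells of a type and more RNA per cell cannot be told apart.

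**Figure D1:**
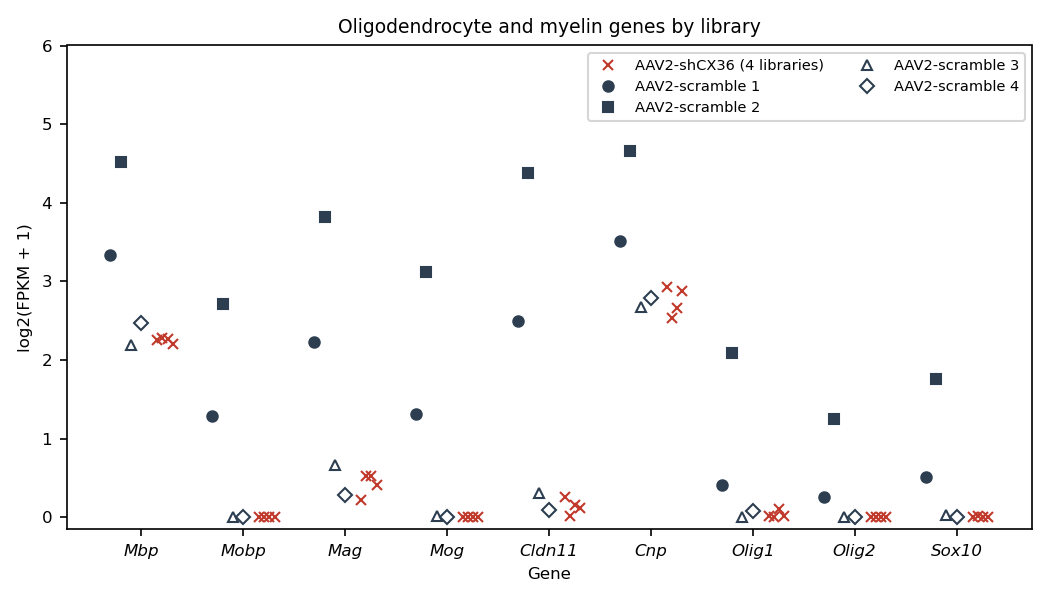
Level of each of the 9 genes in every library, as log2(FPKM + 1) on the vertical axis. Filled symbols are AAV2-scramble 1 and 2, open symbols AAV2-scramble 3 and 4, and crosses the 4 AAV2-shCX36 libraries. For each gene the filled square and circle lie above all other points. In the other 6 libraries only Mbp and Cnp reach 1 FPKM, with Mag and Cldn11 lower but above 0.

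Promoter-proximal sequence is printed for 4 of the genes because they behave alike in the 2 high libraries and differ in the other 6, where Mobp and Mog were at or near 0, Mag was low and Cnp was present throughout. Each sequence covers bases 250 to 36 before the RefSeq transcription start on GRCm38.p6, 5′ to 3′ on the strand of the gene. Capitals mark ACAAAG or its reverse complement CTTTGT, a core of the motif bound by SOX proteins.
Mobp: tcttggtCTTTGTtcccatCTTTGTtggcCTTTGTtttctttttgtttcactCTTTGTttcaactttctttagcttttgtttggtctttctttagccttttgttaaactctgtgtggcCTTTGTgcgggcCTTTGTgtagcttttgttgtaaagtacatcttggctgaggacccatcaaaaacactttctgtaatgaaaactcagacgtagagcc
Mag: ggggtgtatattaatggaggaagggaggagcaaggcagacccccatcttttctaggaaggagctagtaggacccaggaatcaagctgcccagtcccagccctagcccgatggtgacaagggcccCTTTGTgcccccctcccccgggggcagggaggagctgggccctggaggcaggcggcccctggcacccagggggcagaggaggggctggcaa
Cnp: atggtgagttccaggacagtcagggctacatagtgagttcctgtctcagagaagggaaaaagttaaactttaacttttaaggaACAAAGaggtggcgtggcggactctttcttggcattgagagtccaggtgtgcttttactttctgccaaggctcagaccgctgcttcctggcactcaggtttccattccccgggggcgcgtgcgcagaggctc
Mog: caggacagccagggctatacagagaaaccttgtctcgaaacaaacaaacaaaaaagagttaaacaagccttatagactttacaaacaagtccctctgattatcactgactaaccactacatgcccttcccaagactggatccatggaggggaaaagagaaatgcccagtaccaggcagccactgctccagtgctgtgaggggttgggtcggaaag

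These windows are chr9:120149492-120149706 (plus strand) for Mobp, chr7:30914899-30915113 (minus strand) for Mag, chr11:100574689-100574903 (plus strand) for Cnp and chr17:37023434-37023648 (minus strand) for Mog. Of the 2 starts listed for Mag, 1 is shown. The Mobp window held the hexamer 6 times, the Mag and Cnp windows 1 time each and the Mog window 0 times. The window of Cldn11, another gene near 0 in the low libraries, held it 0 times and is not printed. Among all 32851 RefSeq windows of the same length, 14.5% held it at least 1 time on either strand, and the Mobp window was the only 1 with 6 or more, a number chosen after its count was seen. None of the 4 windows held ACAATG, a related SOX core present in 9.62% of all windows. Nor did any hold the E-box hexamers searched, which were CAGCTG (present in 11.1% of all windows), CAGATG (present in 12.7%) and CATATG (present in 3.14%). A match is a description of the letters and not a measured binding site.

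The compact myelin genes differed in their level outside the high libraries. Mbp, myelin basic protein, which joins the cytoplasmic faces of the sheath, had 9.13 and 21.9 FPKM in AAV2-scramble 1 and 2 and 3.55 and 4.53 FPKM in AAV2-scramble 3 and 4. In AAV2-shCX36 libraries 1 to 4 Mbp had 3.79, 3.84, 3.80 and 3.60 FPKM. The groups overlapped, because AAV2-scramble 3 lay below all 4 AAV2-shCX36 libraries. The Mbp gene also makes golli transcripts in neurons and immune cells, and the table gives 1 value for the gene. Mobp, a small basic protein of compact myelin (chromosome 9, 120149707 to 120181484, plus strand), had 1.44 and 5.55 FPKM in AAV2-scramble 1 and 2. It was listed at 0 in AAV2-scramble 3 and 4 and in AAV2-shCX36 libraries 2, 3 and 4, and at 0.00590 FPKM in AAV2-shCX36 library 1. Mobp was therefore nearly a present-or-absent measure across these libraries, whereas Mbp was not.

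The membrane and adhesion proteins of the sheath showed the same order. Mag (chromosome 7, 30899176 to 30914873, minus strand) encodes a lectin on the innermost myelin wrap that also restrains axon growth. Its levels in AAV2-scramble 1 to 4 were 3.68, 13.1, 0.584 and 0.218 FPKM, and those in AAV2-shCX36 1 to 4 were 0.165, 0.442, 0.439 and 0.324 FPKM. Mag was thus low but above 0 in all 6 other libraries, with AAV2-scramble 3 above and AAV2-scramble 4 within the range of the AAV2-shCX36 values.

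Mog (chromosome 17, 37010743 to 37023398, minus strand), a glycoprotein of the outermost myelin surface, had 1.48 and 7.67 FPKM in AAV2-scramble 1 and 2. It had 0.0155 FPKM in AAV2-scramble 3 and was listed at 0 in AAV2-scramble 4 and in all 4 AAV2-shCX36 libraries. Cldn11 (chromosome 3, 31149920 to 31164324, plus strand), the tight junction protein that seals myelin layers, had 4.65, 19.8, 0.240 and 0.0686 FPKM in AAV2-scramble 1 to 4. In AAV2-shCX36 1 to 4 it had 0.196, 0.0142, 0.116 and 0.0853 FPKM. These values left a wide gap between the 2 high libraries and the other 6.

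Cnp (chromosome 11, 100574904 to 100591729, plus strand), an enzyme that keeps cytoplasmic channels open in myelin, was the most abundant of the 9 genes in every library. It had 10.4, 24.2, 5.38 and 5.89 FPKM in AAV2-scramble 1 to 4 and 6.64, 4.80, 5.32 and 6.35 FPKM in AAV2-shCX36 1 to 4. Its gene overlaps Dnajc7 on the opposite strand. The strand setting of the counting is unknown here, so fragments of Cnp and Dnajc7 may not have been told apart. Mbp and Cnp were the only members at or above 1 FPKM in the 6 low libraries.

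The transcription factors were the least abundant members in AAV2-scramble 1 and 2. In the other libraries they were at or near 0, as were Mobp and Mog. Olig2 (chromosome 16, 91225457 to 91228677, plus strand), the basic helix-loop-helix factor that specifies the lineage, had 0.196 and 1.37 FPKM in AAV2-scramble 1 and 2 and was listed at 0 in the other 6 libraries. Olig1, its neighbour 41.1 kb further along the chromosome (91269772 to 91271933, plus strand), had 0.327, 3.26, 0 and 0.0591 FPKM in AAV2-scramble 1 to 4. It had 0.0121, 0, 0.0747 and 0.0123 FPKM in AAV2-shCX36 1 to 4. At the estimated depths and the annotated exon length of 2162 bases, the Olig1 values correspond to 27 and 251 fragments in AAV2-scramble 1 and 2 and to between 0 and 6 fragments in each other library. Sox10 (chromosome 15, 79154908 to 79165240, minus strand), which drives myelin gene transcription, had 0.427, 2.37 and 0.0194 FPKM in AAV2-scramble 1, 2 and 3, and 0.00981 FPKM in AAV2-shCX36 library 2. It was listed at 0 in the remaining 4 libraries. Outside AAV2-scramble 1 and 2 the 3 factors were at the limit of what this depth can detect.

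AAV2-scramble 2 exceeded AAV2-scramble 1 least for the abundant Cnp and Mbp and most for the OLIG factors. The ratio was 2.32 for Cnp, 2.39 for Mbp, 3.55 for Mag, 3.86 for Mobp, 4.27 for Cldn11, 5.19 for Mog, 5.56 for Sox10, 6.99 for Olig2 and 9.96 for Olig1. With the AAV2-shCX36 mean subtracted from both libraries, Mbp and Cnp came to 3.37 and 3.97, close to Mag at 3.81 and Mobp at 3.86. The OLIG factors stayed highest at 6.99 and 10.7. Each ratio rests on a single pair of libraries and has no replicate check. Mbp and Cnp, the members that average at least 1 FPKM without AAV2-scramble 1 and 2, were each over 2-fold higher in AAV2-scramble 2 than in AAV2-scramble 1, where 0.95% of 12845 genes reached 2-fold. Mag, Mog and Cldn11 average that much only because AAV2-scramble 2 is high, so their ratios are not set against other genes.

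The makeup of the summed signal changed with its size. Mbp and Cnp made up 46.4% of the 9-gene sum in AAV2-scramble 2 and 61.6% in AAV2-scramble 1, against 91.2% to 96.8% in the other 6 libraries. Without these 2 genes the sums were 53.1 and 12.2 FPKM in AAV2-scramble 2 and 1 and between 0.346 and 0.859 FPKM elsewhere. The AAV2-shCX36 mean was 23.9% of the AAV2-scramble 2 level for Cnp and 17.2% for Mbp, but 2.62% for Mag and 0.518% for Cldn11.

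**Figure D2:**
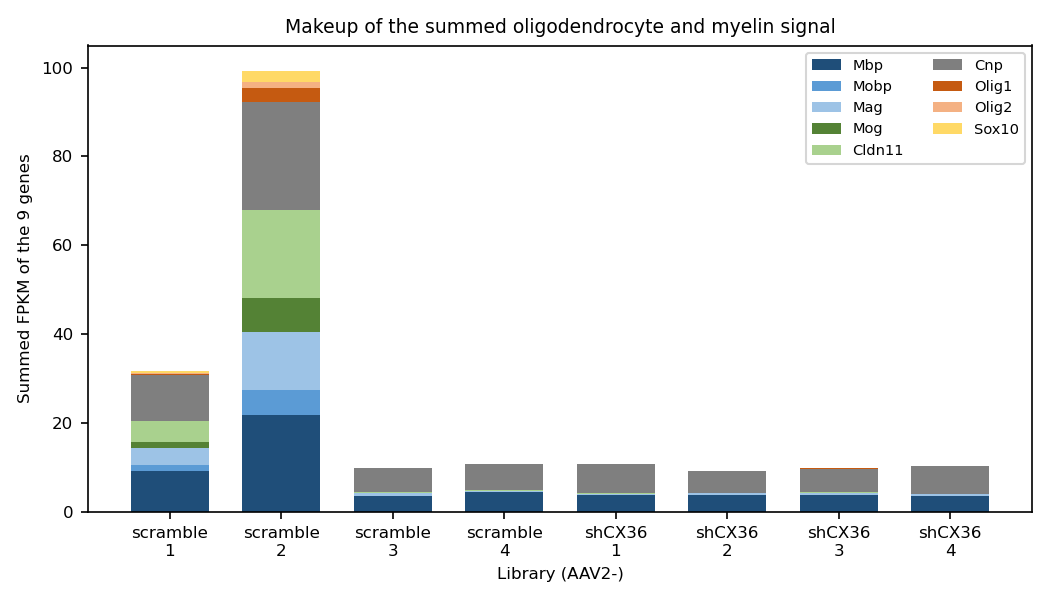
Summed FPKM of the 9 genes in each library, stacked by gene from 0. AAV2-scramble 2 reaches 99.2 FPKM and AAV2-scramble 1 31.7 FPKM with every gene visible or nearly so, while the other 6 bars lie near 10 FPKM and are almost wholly Mbp and Cnp.

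The design compares retinas with and without the hairpin against connexin 36. For these genes no difference beyond the spread between libraries was found. Of the 9 members 5 had a mean of at least 1 FPKM and entered the limma fit on log2(FPKM + 1) over 12858 genes. None of the 5 passed a Benjamini-Hochberg adjusted p of 0.05, and 0 had an unadjusted p under 0.05. Over all tested genes 4.76% were called, 2.24% higher in AAV2-shCX36 and 2.52% lower. Mag, Mog and Cldn11 reached the filter only through AAV2-scramble 1 and 2. Mobp, Olig1, Olig2 and Sox10 did not reach it.

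The fitted differences, AAV2-shCX36 minus AAV2-scramble, were all negative, as the levels above require. Cldn11 had 0.103 ± 0.0754 FPKM (SD, n = 4) against 6.20 ± 9.34, a log2 difference of -1.68 ± 0.83 (SE) with a limma adjusted p of 0.265. Mbp had 3.76 ± 0.108 against 9.76 ± 8.42 FPKM, a log2 difference of -0.88 ± 0.43 with a limma adjusted p of 0.264. The log2 differences of Mag, Mog and Cnp were -1.33, -1.11 and -0.65, with limma adjusted p of 0.272, 0.308 and 0.339. For Mag, Mog and Cldn11 a negative difference follows from how they reached the filter, so the 5 are not summarised against all genes. The SD over the controls exceeded their mean for Mag, Mog and Cldn11 but not for Mbp or Cnp. In a fit without the filter, over 24860 genes, none of the 9 passed (limma adjusted p from 0.413 to 0.557), where 1.25% of genes were called (0.712% higher and 0.539% lower).

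The values turned on the choice of controls. Without AAV2-scramble 1 and 2, only Mbp and Cnp still reached 1 FPKM on average. Their log2 differences were then -0.08 and 0.024 (limma adjusted p = 0.694 and 0.931), so neither passed, where 7.51% of genes did (4.43% higher and 3.08% lower). Without AAV2-scramble 3 and 4, 6 members reached the filter and all 6 were called lower, with log2 differences from -1.33 (Cnp) to -3.30 (Cldn11) and limma adjusted p from 0.00256 to 0.0117. In that fit 26.7% of genes were called, 11.9% higher and 14.8% lower. The 2 libraries were set apart with these levels known, so those calls are no test of the hairpin.

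Other genes of the myelin sheath followed only in part. Of 22 further myelin protein genes 21 were found and 10 tested. None rose and 3 fell, with a median log2 difference of -0.48. 19 of the 21 were highest in AAV2-scramble 2, as were 28.2% of all tested genes. In 12 of the 21 both AAV2-scramble 1 and 2 lay above the other 6 libraries, where 19.6% of all tested genes did. These shares cover tested genes only, whereas the 21 include genes under the filter, so the counts are not like for like. For the 9 members this order was known when the libraries were split. Mal, a proteolipid of myelin rafts, had 6.34 and 21.0 FPKM in AAV2-scramble 1 and 2 and between 0.333 and 3.88 FPKM in the others.

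The 3 that fell, Plekhb1, Car2 and Gpr37, had a different pattern from the members. Car2, carbonic anhydrase 2, which Müller glia also express, had 81.8, 108, 78.0 and 86.6 FPKM in AAV2-scramble 1 to 4. It had 60.2, 48.2, 50.1 and 54.9 FPKM in AAV2-shCX36 1 to 4. The groups did not overlap, as in 15.9% of tested genes, and AAV2-scramble 3 and 4 lay close to AAV2-scramble 1, on either side of it. Its log2 difference was -0.71 ± 0.11 (limma adjusted p = 0.0117), and it passed with every single library left out (highest adjusted p 0.0456). Plekhb1, a membrane-bound protein also abundant in photoreceptors, had 276 ± 43.2 against 169 ± 23.6 FPKM (SD, n = 4; limma adjusted p = 0.0228). Gpr37, a receptor of maturing oligodendrocytes, had 26.2 ± 4.32 against 16.9 ± 1.99 FPKM (limma adjusted p = 0.0368). The call of Plekhb1 was lost when AAV2-shCX36 library 2 (adjusted p = 0.0764), 3 (0.0734) or 4 (0.0665), or AAV2-scramble library 3 (0.0609), was left out. Gpr37 passed only without AAV2-scramble library 3 or 4 among the single omissions, with an adjusted p of up to 0.11. In the same libraries Müller glia markers summed to between 520 and 840 FPKM in AAV2-scramble and between 262 and 423 FPKM in AAV2-shCX36, with 4 of 7 called lower. Rod markers summed to between 1220 and 1814 FPKM and between 790 and 1136 FPKM, with 5 of 8 called lower. The part of either in these 3 falls was not tested.

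Enzymes of myelin lipids and further lineage factors gave no calls, though all 8 enzymes and 7 of the 8 factors were highest in AAV2-scramble 2. In 5 of the enzymes and 7 of the factors both AAV2-scramble 1 and 2 lay above the other 6 libraries. Among all tested genes 28.2% and 19.6% had these orders, but the lists include genes under the filter, so the counts are not like for like. Of 8 lipid enzymes 3 were tested, with a median log2 difference of -0.07, none passing and 0 with an unadjusted p under 0.05. Fa2h, which hydroxylates the fatty acids of myelin galactolipids, had 1.55 and 3.75 FPKM in AAV2-scramble 1 and 2 and at most 0.0948 FPKM elsewhere. Of 8 other lineage factors 3 were tested, none passed in limma and 2 had an unadjusted p under 0.05. Sox8, a close relative of Sox10, had 4.22, 6.97, 2.39 and 3.78 FPKM in AAV2-scramble 1 to 4 and between 0.781 and 2.08 FPKM in AAV2-shCX36. These groups did not overlap, and its limma adjusted p was 0.0603. Sox8 passed under some alternatives, namely median-of-ratios scaling (limma adjusted p = 0.0495) and quantile normalization (0.0384). It also passed without AAV2-scramble library 3 (0.0470) and without AAV2-scramble 3 and 4 (0.00763). Nkx2-2, a factor of early oligodendrocytes, had 0.00459 and 0.0632 FPKM in AAV2-scramble 1 and 2 and was listed at 0 in the other 6 libraries.

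Markers of oligodendrocyte precursors did not follow as a list. Of 12 genes 5 were tested, none passed in limma, 1 had an unadjusted p under 0.05 and the median log2 difference was -0.24. Their summed level was 1.16 and 1.13 times the AAV2-shCX36 mean in AAV2-scramble 1 and 2. The most abundant, C1ql1, Lhfpl3 and Cacng4, had between 20.4 and 41.8 FPKM in every library. They made up most of that sum and most of the 5 tested genes, so neither the sum nor the median describes the scarcer genes. The rest of the list was mixed, and in 2 of the 12 genes both AAV2-scramble 1 and 2 lay above the other 6 libraries. Pdgfra, the growth factor receptor of precursors, had 0.357 and 0.394 FPKM there, within the 0.123 to 0.732 FPKM of the others. Cspg4, the NG2 proteoglycan of precursors and pericytes, had 0.624 and 0.963 FPKM there and between 0.0446 and 0.661 FPKM elsewhere. Bcas1, of newly forming oligodendrocytes, had 0.429 and 3.11 FPKM in AAV2-scramble 1 and 2 and at most 0.0368 FPKM elsewhere. Gpr17, of committed precursors, had 0.746 FPKM in AAV2-scramble 2 and was listed at 0 in the other 7 libraries.

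Of 7 Schwann cell genes, of peripheral myelin, 0 had both AAV2-scramble 1 and 2 above the other 6 libraries. Neither tested gene of the list, Pmp22 or Drp2, passed in limma or had an unadjusted p under 0.05. Of 12 node and paranode genes 1 rose and none fell, with a median log2 difference of 0.23 and 5 at an unadjusted p under 0.05. The 1 was Cntnap1, the axonal anchor of the paranode, with 43.1, 38.6, 47.9 and 46.3 FPKM in AAV2-scramble 1 to 4 and 53.8, 57.3, 55.8 and 53.4 FPKM in AAV2-shCX36 1 to 4 (limma adjusted p = 0.0400). Cntnap1 passed only without AAV2-scramble library 2 or 4 among the single omissions, with an adjusted p of up to 0.126. Of 9 myelin growth inhibitors and their receptors, such as Rtn4 (Nogo), none passed in limma, 0 had an unadjusted p under 0.05 and the median log2 difference was -0.05.

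Genes reported in oligodendrocytes under disease included 2 that rose among 4 tested, Serpina3n and C4b, and none that fell, with a median log2 difference of 0.62. Klk6, a protease of mature oligodendrocytes from the same list, had 0.0869 and 1.05 FPKM in AAV2-scramble 1 and 2 and was listed at 0 in the other 6 libraries. Serpina3n had 19.1 ± 0.664 FPKM in AAV2-scramble (SD, n = 4) and 50.2 ± 29.4 FPKM in AAV2-shCX36 (limma adjusted p = 0.0473). C4b, a complement gene, had 2.72 ± 2.97 and 15.7 ± 9.19 FPKM (limma adjusted p = 0.0427). C4b in AAV2-scramble 2, at 7.02 FPKM, lay just below the lowest AAV2-shCX36 value of 7.33 FPKM. AAV2-scramble 3 and 4, where the 9 members were also low, were not raised for either gene. Mog and Olig2 were listed at 0 in all 4 AAV2-shCX36 libraries, and which cells carried the 2 rises was not tested. Serpina3n passed only without AAV2-shCX36 library 1 and C4b only without AAV2-scramble library 2 or 4 among the single omissions, with adjusted p of up to 0.101 and 0.114.

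**Figure D3:**
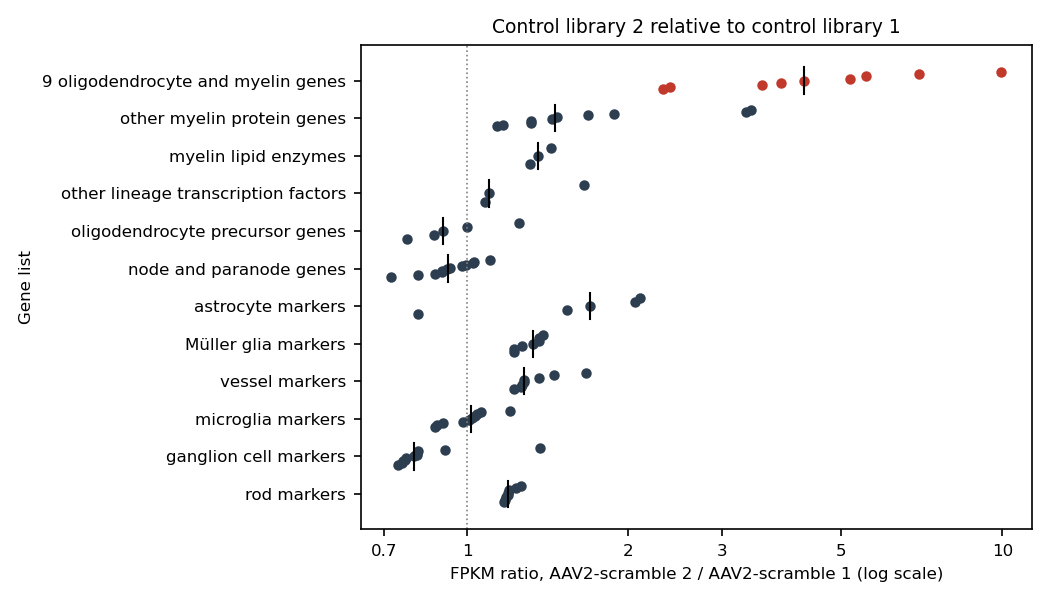
FPKM in AAV2-scramble 2 divided by FPKM in AAV2-scramble 1, on a log axis, with 1 point per gene and a bar at the median of each list. All 9 genes are drawn, and of the other lists those with a mean of at least 1 FPKM. The 9 genes lie between 2.32 and 9.96, microglia markers lie around 1 and most ganglion cell markers below 1. Of the 9, only Mbp and Cnp average at least 1 FPKM without AAV2-scramble 1 and 2, so only they are comparable with the other lists. The astrocyte marker S100b also averages under 1 FPKM without these libraries.

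Microglia markers were also high in the 2 high libraries, but not in the same proportion, and markers of other cells varied in direction. All 10 microglia markers were higher in AAV2-scramble 1 and 2 than in the other 6 libraries, and 1 of the 10, P2ry12, was called lower in AAV2-shCX36 (limma adjusted p = 0.0302). That call held in 1 of 8 single omissions, without AAV2-scramble library 4, and reached an adjusted p of 0.098 otherwise. Their sum was 610 and 577 FPKM in AAV2-scramble 1 and 2, 295 and 135 in AAV2-scramble 3 and 4, and 122 to 214 in AAV2-shCX36. The ratio of AAV2-scramble 2 to AAV2-scramble 1 had a median of 1.02 over the microglia markers. It was 2.32 for Cnp and 2.39 for Mbp, the members that average at least 1 FPKM without these 2 libraries. Vessel markers summed to 130 and 168 FPKM in AAV2-scramble 1 and 2 and to between 31.5 and 138 FPKM in the others. Ganglion cell markers were lowest there, at 2044 and 1586 FPKM against 2424 to 2773 FPKM. Lens markers summed to 0.388 and 0.433 FPKM in AAV2-scramble 1 and 2 and to between 5.33 and 323 FPKM in the others. Pigment epithelium markers summed to between 2.30 and 3.08 FPKM in AAV2-scramble and between 1.90 and 8.15 FPKM in AAV2-shCX36. The part of these shifts in the members' levels was not tested.

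Markers of astrocytes and of meningeal cells and fibroblasts, which the optic nerve and its sheath also hold, varied from gene to gene. The 9 astrocyte markers summed to 145 and 129 FPKM in AAV2-scramble 1 and 2 and to between 118 and 144 FPKM in the others. Of 5 tested, Aqp4, a water channel also of Müller glia, was called lower in AAV2-shCX36 (limma adjusted p = 0.0430), and in single omissions only without AAV2-scramble library 4. Aldoc, which retinal cells also express, made up most of that sum. S100b and Aqp4 were highest in AAV2-scramble 2, at 2.77 and 12.9 FPKM, and the median ratio of AAV2-scramble 2 to AAV2-scramble 1 over the 5 tested was 1.70. S100b averages under 1 FPKM without these libraries and was tested only through them, so this median is not set against other lists. Gfap, the filament of fibrous and reactive astrocytes, had 1.38 and 2.83 FPKM in AAV2-scramble 1 and 2 and between 0.339 and 5.65 FPKM elsewhere. Pax2, a marker of optic nerve head astrocytes, had 0.122 and 0.0494 FPKM against 0.0766 to 0.250 FPKM elsewhere. The 12 meningeal and fibroblast markers summed to 17.1 and 39.1 FPKM in AAV2-scramble 1 and 2, and to between 5.55 and 48.2 FPKM in the others, with AAV2-shCX36 library 1 highest and AAV2-scramble 2 next. Relative to the AAV2-shCX36 mean these sums were 0.72 for AAV2-scramble 1 and 1.64 for AAV2-scramble 2, but 0.23 for AAV2-scramble 3 and 0.38 for AAV2-scramble 4. Ptgds, the most abundant of the list, had 9.93 and 26.8 FPKM in AAV2-scramble 1 and 2 and between 1.90 and 35.3 FPKM elsewhere. It made up most of the sum in AAV2-shCX36 library 1 (35.3 FPKM) and in AAV2-scramble 2, so these sums lean on 1 gene. Foxc1, a factor of meningeal cells, had 2.36 and 3.17 FPKM in AAV2-scramble 1 and 2 and between 0.360 and 2.00 FPKM elsewhere. Igf2, a growth factor, was highest in AAV2-scramble 2 at 4.50 FPKM, and Lum, a matrix proteoglycan, was listed at 0 in 6 of the 8 libraries. None of the 3 tested meningeal genes passed in limma, and 0 had an unadjusted p under 0.05. The part of either cell type in the members' levels was not tested.

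**Figure D4:**
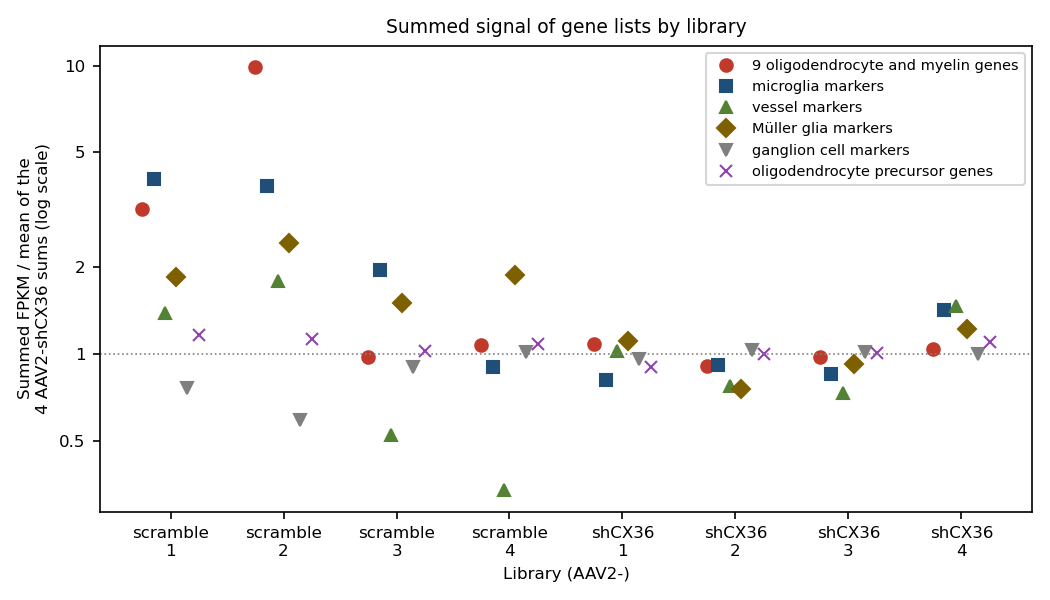
Summed FPKM of each list in every library, divided by the mean of the 4 AAV2-shCX36 sums, on a log axis. The 9 genes reach 9.91 in AAV2-scramble 2 and 3.17 in AAV2-scramble 1 and lie between 0.91 and 1.08 in the other 6 libraries, while microglia markers stand at 4.04 and 3.82 in AAV2-scramble 1 and 2.

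The genes most like the members were sought over the 8 libraries by the root mean square difference between centred log2(FPKM + 1) profiles. The nearest of all tested genes was Cmtm5, at 0.273, a membrane protein of central nervous system myelin. It had 1.80, 4.29, 0.119 and 0.779 FPKM in AAV2-scramble 1 to 4 and between 0.299 and 0.598 FPKM in AAV2-shCX36. The next were S1pr1, a sphingosine 1-phosphate receptor, Il6ra, an interleukin 6 receptor chain, and Txnip, a thioredoxin inhibitor, at 0.331, 0.364 and 0.370. Gal3st4, Ncf1, Slc2a5, E230029C05Rik, Gm4792, Mlxipl, F11r and Cavin2 completed the nearest 12, out to 0.405, where the median over all tested genes was 0.854. Of the 12 genes, Cmtm5 alone had a ratio of AAV2-scramble 2 to AAV2-scramble 1 above 2, at 2.38, and the others lay between 1.05 and 1.91. Outside these libraries Cmtm5 was at most 0.779 FPKM, so it reached the filter of 1 FPKM only through them. Its rank and ratio are therefore not comparable with those of other genes. Gal3st4, Slc2a5, E230029C05Rik and Mlxipl also average under 1 FPKM without AAV2-scramble 1 and 2.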

How the data were processed

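The authors deposited FPKM for 24860 genes in 8 libraries of mouse retina, 1 column per library. Per the submitters' processing notes, fastp, HISAT2, HTSeq, R 3.2.0 and DESeq2 were used with GRCm38 and mm10. The FPKM step, annotation and strand setting are not given in the sources used here. With 0 columns unmatched, groups and replicate numbers came from the titles.

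Genes averaging 1 FPKM or more over all libraries were compared between AAV2-shCX36 and AAV2-scramble as log2(FPKM + 1). The linear model was that of limma 3.58.1 under R 4.3.3, with an intensity trend in the empirical Bayes step. Genes were called at a Benjamini-Hochberg adjusted p under 0.05. Such differences understate changes of low genes. The fit was tested on simulated data. Depth was estimated as the number of fragments that made most low values of 606 single-exon genes whole within 0.05, which held for 28.2% to 40% of low values per library, so depth is approximate and no counting interval is given. Positions came from GENCODE vM21 and promoters from RefSeq (GRCm38.p6), in which 6 of 9 members were found. Tables were made with pandas 2.3.3 and figures with matplotlib 3.10.9.

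The members, 17 comparison lists and tests were chosen with earlier results of these data known. Named genes were the members, the 3 most abundant and all called genes of each list, and the 12 genes nearest the members. Other list genes, such as Mal, Fa2h, Nkx2-2, Bcas1, Gpr17, Klk6, Pdgfra, Cspg4, S100b, Pax2, Foxc1, Igf2 and Lum, were named after their values were seen. Of the listed symbols, 2 were not found. Some genes of the lists are not reported here by name. Alternatives were other pseudocounts, scalings, filters and variance models, a replicate block, and libraries left out.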

Additional observations from a re-analysis of the deposited data

Results flagged for a closer look

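In groups of 4, a value was set aside when its gap to the next value, as a share of the group's range, exceeded Dixon's 95% critical value. This held in 6 of 62 groups, where chance gives about 1 in 20 for normally distributed values. The 62 include groups at 0 throughout, which cannot be flagged. A single value above 0 in a group is always flagged, so the rates are not comparable. Olig1 at 3.26 FPKM and Olig2 at 1.37 FPKM in AAV2-scramble 2 stood above the other controls, which reached 0.327 and 0.196 FPKM. Mobp at 0.00590 FPKM in AAV2-shCX36 library 1 and Sox10 at 0.00981 FPKM in AAV2-shCX36 library 2 were the only values above 0 in their group. Olig1 at 0.0747 FPKM in AAV2-shCX36 library 3, an estimated 6 fragments, stood above 0.0123 FPKM or less in the others. Serpina3n at 94.2 FPKM in AAV2-shCX36 library 1 stood above 33.9 to 37.9 FPKM in the others.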

How the results depend on the processing

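With single libraries left out, 96 to 575 genes were called higher and 70 to 591 lower, against 288 and 324 with all 8, and 0 members were called in either direction. Counts over all genes were 177 higher and 134 lower without a filter, and 107 and 57 with the replicate block. Without AAV2-scramble 1 and 2, 565 were higher. Without AAV2-scramble 3 and 4, 1542 were higher and 1914 lower, and 6 members were called lower. The difference of Cnp turned to 0.024 without AAV2-scramble 1 and 2. Of 96 values of the 5 tested members under the alternatives, 90 kept direction and side of the threshold, 5 newly passed (all without AAV2-scramble 3 and 4) and 1 turned. Of 305 values of the 15 genes so examined, 71 lost a call, none of a member, and 9 newly passed, those of members given above and of Sox8. The calls of Plekhb1, Gpr37, Cntnap1, Serpina3n, C4b, Aqp4 and P2ry12 were lost without the filter (adjusted p from 0.0625 for Plekhb1 to 0.113 for Serpina3n) and with the block, as was that of Car2 with the block (0.0594). Serpina3n was also lost with no trend, robust fitting and library weights (0.0604, 0.0594 and 0.0834). C4b was lost with no trend, robust fitting and a pseudocount of 0.1 (0.0548, 0.0523 and 0.0525). Cntnap1 was lost with no trend and median-of-ratios scaling (0.0602 and 0.0867), and Aqp4 with no trend and library weights (0.0539 and 0.0587). Without AAV2-scramble 1 and 2 the calls of Gpr37, Serpina3n and Aqp4 were lost (0.0874, 0.0911 and 0.0749). Without AAV2-scramble library 2, Mag, Mog and Cldn11 fell under the filter. Deviations from the group means correlated between same-numbered libraries at 0.128, -0.302, 0.226 and -0.269. No value for other pairs of libraries was set beside these, so whether the numbers pair libraries was not settled. Depth limits Olig1, Olig2, Sox10, Mobp and Mog outside AAV2-scramble 1 and 2, where few or no fragments were counted.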

Other observations

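A few genes of the comparison lists were high in AAV2-scramble 1 and 2 to a like degree, unlike the 9 members, and were singled out after their values were seen. Ptprz1, a receptor phosphatase of precursors and other glia, had 14.8 and 13.3 FPKM in AAV2-scramble 1 and 2 and between 2.23 and 6.39 FPKM in the other 6 libraries. St18, a zinc finger factor, had 5.80 and 6.28 FPKM there and between 0.806 and 2.40 FPKM elsewhere. Ngfr, the p75 neurotrophin receptor, had 38.1 and 33.6 FPKM there and between 11.7 and 21.1 FPKM elsewhere. Isl1, a factor of ganglion, amacrine and bipolar cells, had 44.6 and 40.5 FPKM there and between 17.6 and 30.0 FPKM elsewhere, whereas each of the other 10 ganglion cell markers was not highest in these libraries.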
